A study of Mus musculus with 8 samples.

Results

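The genes described here encode the cytosolic ribosomal proteins, the protein part of the ribosome that translates nuclear-encoded messages. Members were the protein-coding genes whose symbol is Rps or Rpl followed by a digit, together with Rpsa, Rplp0, Rplp1 and Rplp2. Pseudogenes, the Rps6k kinases, paralogues whose symbol ends in l or in l and a digit, and Rps19bp1, which encodes a binding protein, were left out. The rule gave 80 of 21887 protein-coding genes on chromosomes 1 to 19, X and Y. Of these, 77 are the classical genes, 31 for the small (40S) subunit and 46 for the large (60S) subunit, and 3 are retrogenes (Rpl37rt, Rps23rg1 and Rps27rt). The 77 classical genes lie on 19 chromosomes, with 14 on chromosome 7 and 4 on X.

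Chromatin accessibility had been measured by ATAC-seq, in which a transposase cuts open chromatin and leaves sequencing adapters there, in DN3 thymocytes of C57BL/6 mice. DN3 is the CD4-negative, CD8-negative thymic stage at which the T-cell receptor beta chain is tested. Of the 4 libraries, 2 came from mice homozygous for mutations of GATA sites 1 and 2 in N-Me, the Notch-Myc enhancer far downstream of Myc, and 2 from mice with wild-type N-Me; 4 T-cell leukaemia samples of the series were not analysed here. Age, sex and the animals behind each library are not stated, so the p-values measure only the spread between libraries, which may be technical.

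Each ribosome holds a single copy of most of its proteins, so their genes must be expressed together and at a high level, and their messages make up a large part of the messages of a growing cell. Myc, the gene that N-Me regulates, is a known activator of ribosomal protein genes. In mammals these genes are short, their promoters mostly lack a TATA box in the usual place, and transcription starts at a C within a run of pyrimidines, the 5' terminal oligopyrimidine (TOP) tract through which mTOR signalling controls translation of the message. No expression was measured in these libraries.

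The data were a list of broad peaks for each library. In mutant these lists had 121022 and 119023 peaks over 72.3 and 69.3 Mb, against 169255 and 156372 peaks over 72.1 and 70.8 Mb in wild type. No gap between neighbouring peaks was smaller than 293 and 349 bp in mutant, against 257 and 261 bp in wild type, and the shortest peak was 73 and 87 bp in mutant, against 64 and 65 bp in wild type. Such differences between the lists move with genotype and can change peak number and width; the results were therefore also computed with a common joining gap and shortest width, and with an equal number of peaks from each list. Peak lists hold no read counts, so read depth is unknown and a gene without a peak was not detected at that depth. The annotated start of 8 of 8 DN3 marker genes (Ptcra, Il2ra, Rag1, Rag2, Cd3e, Notch1, Bcl11b and Tcf7) had a peak in all 4 libraries. Among markers of other cells, a peak at the start in all 4 was found for 1 of 3 B-cell, 2 of 3 myeloid, 1 of 3 erythroid, 1 of 2 NK-cell and 1 of 2 thymic epithelial genes. No library had a peak at the start of Ms4a1, Gata1, Hba-a1 or Ncr1.

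All 77 classical genes had a peak within the gene body extended by 1 kb on each side in every library. With the retrogenes, the count was 78 of 80 (97.5%), against a background of 75.9% of protein-coding genes (16602 of 21887). A start peak, the peak with the highest −log10 q within 1 kb of an annotated start, was present in all 4 libraries at 77 of 80 members, against 66.8% of protein-coding genes (14628 of 21887). None of the members had a peak in both mutant libraries and neither wild-type library (background 0.0457%), and 1 member, the retrogene Rps23rg1, had peaks in both wild-type libraries and neither mutant library (background 1.67%). Ribosomal protein genes are short, with a median length of 3175 bp against 17169 bp for protein-coding genes. Peaks covered 26.9% and 25.6% of their extended gene bodies in the mutant libraries and 24% and 23% in the wild-type libraries. Over the extended gene bodies of all 21887 protein-coding genes, with or without a start peak, the covered share was 4.57% and 4.40% in mutant and 4.53% and 4.41% in wild type. Exactly 1 peak in each of the 4 libraries was found at 32 of the 77 genes (41.6%). It was found at 2064 (14.1%) of the 14628 protein-coding genes with a start peak in all 4 libraries.

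The start peaks were of ordinary width and of middling to high strength within their lists. The fold enrichment and −log10 q of each peak are the authors' values and are used to rank peaks within 1 list. The median fold over the 77 genes was 5.75 and 6.12 in the mutant lists and 7.17 and 7.0 in the wild-type lists, where the median over the 14628 start peaks was 5.35 and 5.57 in mutant and 6.38 and 6.14 in wild type. In percentiles of the 14628 start peaks of the same list, the median member stood at 57.5 and 60.2 by fold in mutant and at 62.1 and 63.8 in wild type. By −log10 q, which also grows with peak size, it stood at 68.0 and 69.9 in mutant and at 71.0 and 73.1 in wild type. By fold, few members were among the strongest peaks. The highest 10% of start peaks by fold held 4 and 3 of the 77 members in mutant and 2 and 2 in wild type. The highest 10% by −log10 q held 7 and 7 members in mutant and 10 and 11 in wild type. By width, the median member stood at percentiles 57.7 and 46.8 in mutant and 48.6 and 44.2 in wild type, close to the middle of each list.

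**Figure D1:**
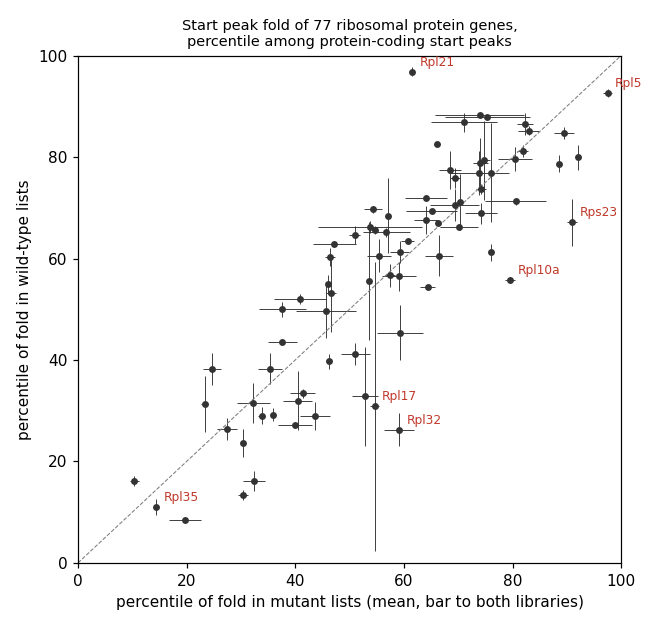
Percentile of each classical ribosomal protein gene's start peak by fold enrichment, among the 14628 protein-coding start peaks of the same list, with the mutant libraries on the x axis and the wild-type libraries on the y axis. Each point is a gene, at the mean of the 2 libraries of a genotype, and bars reach both libraries. Most genes lie near the dashed line of equal percentiles, and Rpl21 stands far above it, at percentiles 61.1 and 61.9 in mutant and 95.9 and 97.7 in wild type.

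The 2 subunits had start peaks of like size. For the 40S genes the median width was 1367 and 1185 bp in the mutant libraries and 1051 and 1040 bp in the wild-type libraries, and for the 60S genes it was 1312.5 and 1161 bp in mutant and 1082.5 and 1054.5 bp in wild type. The median fold of the 40S genes was 6.20 and 6.13 in mutant and 7.21 and 7.15 in wild type, and that of the 60S genes was 5.61 and 6.02 in mutant and 6.89 and 6.97 in wild type. The difference between subunits was not tested, since the genes of a library share its list.

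Rpl5 had the strongest start peak in the mutant lists. Rpl5 binds 5S ribosomal RNA together with Rpl11, and the complex can hold Mdm2 and so stabilise p53 when ribosome assembly fails. The fold at Rpl5 (chromosome 5, 107900508 to 107909005, plus strand) was 9.66 and 9.49 in mutant and 10.2 and 10.2 in wild type, which ranked first and first of 77 in mutant and second and second in wild type. Its widths were close in all libraries, at 1049 and 1042 bp in mutant and 1011 and 1012 bp in wild type. At Rpl11, its partner, the fold was 6.53 and 7.21 in mutant and 7.53 and 7.55 in wild type. The Rpl11 peak was 1590 and 1520 bp wide in mutant and 1083 and 1055 bp in wild type, so that the genotypes did not overlap. Both mutant start peaks were also the wider at 52.1% of protein-coding genes with a start peak in every library.

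Rpl22 was next in the mutant lists. It is an RNA-binding 60S protein without which mouse alpha-beta thymocytes fail to pass the beta checkpoint that follows DN3. The fold at its start was 8.32 and 8.60 in mutant and 8.41 and 8.59 in wild type, and the width was 1116 and 1068 bp in mutant and 1060 and 1054 bp in wild type. By the lowest fold of the 4 libraries, Rpl22 also held the strongest region inside a classical gene but away from its start, at chromosome 4, 152332860 to 152333402 (543 bp), which lies within the annotated gene body. The fold of this region was 7.38 and 6.40 in mutant and 8.67 and 5.93 in wild type, and the genotypes overlapped.

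Other members with high fold in all 4 lists were Rps20, Rps7, Rpl27a and Rpl37a. Rps7 is a 40S protein that is mutated in some patients with Diamond-Blackfan anaemia. Its fold was 7.93 and 8.17 in mutant and 8.37 and 8.38 in wild type. At Rps20 the fold was 8.19 and 8.13 in mutant and 9.03 and 8.98 in wild type. At Rpl27a it was 7.44 and 7.52 in mutant and 9.13 and 9.33 in wild type, and at Rpl37a 7.37 and 7.52 in mutant and 8.91 and 8.35 in wild type. Each of these 4 genes had lower fold in both mutant lists, as did the median protein-coding gene.

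Among those at the other end were Rpl35, Rpl8, Rpl19, Rpl23a and Rpl17. Rpl35, which sits with Rpl23a at the exit of the ribosomal tunnel, had a fold of 3.36 and 3.47 in mutant and 3.60 and 3.74 in wild type. Rpl23a had a fold of 3.96 and 4.03 in mutant and 4.87 and 5.37 in wild type. Rpl8, a 60S protein near the peptidyl transferase centre, had a fold of 3.89 and 3.67 in mutant and 3.49 and 3.43 in wild type. Rpl19 had 4.36 and 4.45 in mutant and 4.02 and 3.72 in wild type. These last 2 genes therefore had higher fold in both mutant lists, and the share of all genes that did so was not computed. In percentiles within each list, 11.5% of protein-coding genes had a gap at least as large in that direction as Rpl8. For Rpl19 this share was 2.99%. Rpl17, another tunnel protein, is among these low members through 1 library. Its fold was 5.55 and 5.85 in mutant and 6.97 and 2.68 in wild type, and the last value belongs to a 145-bp side peak, because no strand was available and the main peak of that library lay outside the windows at both annotated ends.

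The proteins of the P-stalk, which recruits and activates the GTPase factors of translation, are encoded by Rplp0, Rplp1 and Rplp2. At Rplp0 the fold was 7.26 and 7.85 in mutant and 9.13 and 8.99 in wild type, at Rplp1 6.26 and 6.42 in mutant and 8.90 and 8.60 in wild type, and at Rplp2 6.25 and 6.46 in mutant and 7.49 and 7.28 in wild type. Each of the 3 had 1 peak in its extended gene body in every library. The −log10 q of the Rplp0 peak was 285 and 277 in mutant and 331 and 251 in wild type. Rpsa, the 40S protein also known as the laminin receptor, had a fold of 6.81 and 6.89 in mutant and 8.08 and 8.73 in wild type.

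Among 40S proteins with known roles, Rps6, the substrate of the S6 kinases, had a start peak of 1548 and 1541 bp in mutant and 1208 and 1228 bp in wild type. Rps3, at the entry of the messenger RNA channel, had one of 1345 and 1209 bp in mutant and 1051 and 937 bp in wild type. Rps27a, which is made as a fusion with ubiquitin, had one of 1380 and 1322 bp in mutant and 1115 and 1093 bp in wild type. The genotypes did not overlap at these 3 genes. Both mutant start peaks were the wider there, as at 52.1% of the 14628 protein-coding genes with a start peak in every library. Rps19, the gene most often mutated in human Diamond-Blackfan anaemia, had a start peak of 1406 and 1505 bp in mutant and 1419 and 1272 bp in wild type, and Rps14, the ribosomal gene lost in the human syndrome of deletion 5q, one of 2028 and 2063 bp in mutant and 1713 and 1730 bp in wild type. The genotypes overlapped at Rps19 and did not at Rps14. Among 60S proteins, Rpl10, which joins the subunit late and is mutated in some human T-cell leukaemias, had a start peak of 1614 and 1575 bp in mutant and 1583 and 1600 bp in wild type. Rpl3, a core protein near the peptidyl transferase centre, had 1348 and 1110 bp in mutant and 1111 and 1100 bp in wild type, and Rpl13a had 1003 and 910 bp in mutant and 786 and 1114 bp in wild type. The genotypes overlapped at Rpl10, Rpl3 and Rpl13a.

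The median start-peak width of the 77 genes was 1348 and 1177 bp in the mutant libraries and 1082 and 1042 bp in the wild-type libraries. The means of these medians were 1262.5 ± 121 bp in mutant and 1062 ± 28.3 bp in wild type (SD, n = 2 each), a difference of 200.5 bp. The groups did not overlap, and the exact two-sided permutation p was 0.33, the smallest that 2 against 2 libraries can give. Without the first mutant library the difference was 115 bp. Over all 14628 genes the medians were 1256 and 1214 bp in mutant and 1098 and 1108 bp in wild type, a difference of 132 bp in the same direction. The start peak was wider in both mutant than in both wild-type libraries at 51 of the 77 members (66.2%), against a background of 52.1%. It was wider in both wild-type libraries at 1 member, Rpl32 (background 12.8%), and 25 members overlapped. Related lists gave like counts: both mutant peaks were the wider at 54 of 78 mitochondrial ribosomal protein genes and at 12 of 19 translation factors of the TOP class. With the same joining gap and shortest width applied to every list, the difference of the medians was 158 bp.

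**Figure D2:**
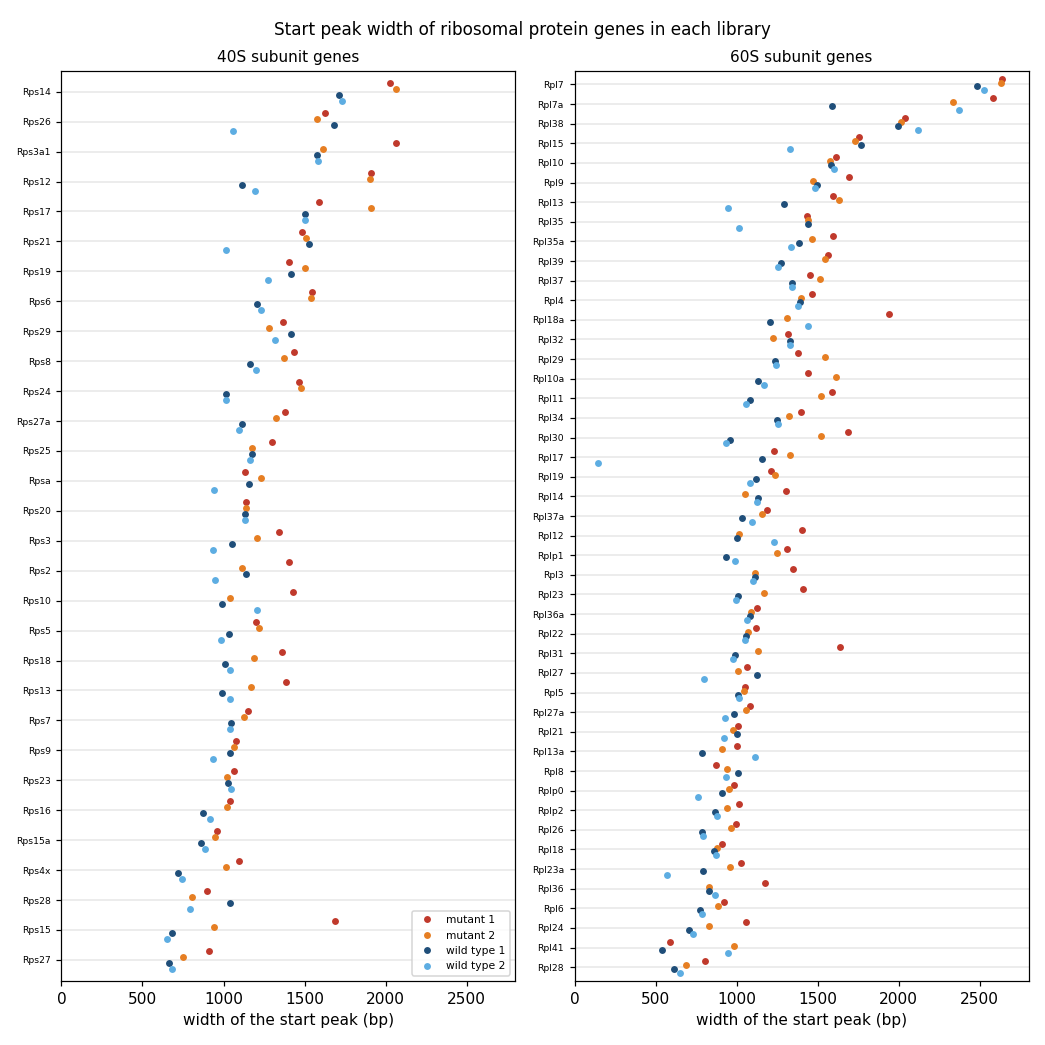
Width in bp of the start peak of classical ribosomal protein genes on the x axis, 1 row a gene, with 40S genes on the left and 60S genes on the right and a point for each of the 2 mutant and 2 wild-type libraries. Rows are ordered by the median of the 4 libraries, and the widest is Rpl7, with 2636 and 2631 bp in mutant and 2485 and 2523 bp in wild type.

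The widest start peaks were at Rpl7, with 2636 and 2631 bp in mutant and 2485 and 2523 bp in wild type, and at Rpl7a, with 2581 and 2337 bp in mutant and 1585 and 2374 bp in wild type. Rpl38, a 60S protein needed for translation of Hox messages in mouse embryos, had 2041 and 2014 bp in mutant and 1997 and 2121 bp in wild type. Rpl15 had 1752 and 1730 bp in mutant and 1767 and 1330 bp in wild type, and Rps14, given above, completes the 5 widest. Only at Rpl7 and Rps14 among these 5 did the genotypes not overlap, with both mutant peaks the wider (background 52.1%). The narrowest, by the median of 4 libraries, were at Rpl28, Rps27, Rpl24, Rps15 and Rpl41. Rpl28 had 805 and 689 bp in mutant and 611 and 651 bp in wild type. Rps27 had 908 and 747 bp in mutant and 666 and 683 bp in wild type. Rpl24, a 60S protein that forms a bridge to the small subunit, had 1059 and 829 bp in mutant and 703 and 728 bp in wild type. At these 3 genes both mutant peaks were the wider (background 52.1%). Rps15 had 1690 and 941 bp in mutant and 680 and 650 bp in wild type. Rpl41, the smallest ribosomal protein, had 586 and 985 bp in mutant and 540 and 946 bp in wild type, but the last value belongs to a different peak that does not cover the start. The region over the Rpl41 start was called in all 4 libraries, with a peak of 562 bp and fold 4.94 in the second wild-type library. The other 76 classical genes had their start peak in the same consensus region in all 4 libraries.

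The largest gaps between the widths of the genotypes included genes chosen after their values were seen. Rps12 had 1912 and 1901 bp in mutant and 1111 and 1195 bp in wild type, and Rpl30 had 1686 and 1523 bp in mutant and 958 and 937 bp in wild type. At both genes the extended gene body held 1 peak in each mutant library and 2 peaks in each wild-type library.

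The number of peaks and their covered length moved in opposite directions. The extended gene bodies of the 77 genes held 113 and 115 peaks in mutant and 136 and 133 in wild type, or 114 ± 1.41 in mutant and 134.5 ± 2.12 in wild type (SD, n = 2 each), a difference of −20.5 and a ratio of 0.848. The ratio over all 21887 protein-coding genes was 0.750. Peaks covered 115.8 and 110.3 kb of the members in mutant and 103.4 and 99.3 kb in wild type, a difference of 11.7 kb and a ratio of 1.12. This ratio was 1.004 over all 21887 protein-coding genes and 1.09 over the 78 genes of the mitochondrial ribosome. The libraries of the genotypes did not overlap in either measure at the members, and the exact two-sided permutation p was 0.33 for both. The difference in number was −9 peaks with a common joining gap and shortest width, −6 with an equal number of peaks from each list and −2.5 with peaks of fold 4 or more, and that in covered length was 5.91 kb without the flanks of the gene bodies.

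The start was taken from a promoter table of RefSeq (GRCm38.p6) that holds 57 of the 77 classical genes with their strand. For the other 20 genes, both annotated ends stood in for the start. At 56 of the 57 genes (98.2%) the start lay inside the start peak in all 4 libraries, the exception being Rpl41 in the second wild-type library. The share among all protein-coding genes with strand was 88.6% (10313 of 11636). Over the 56 genes the peak reached a median of 516 and 469.5 bp upstream of the start in mutant and 383.5 and 396 bp in wild type. It reached 726 and 684.5 bp downstream in mutant and 655.5 and 614.5 bp in wild type. The difference between genotypes was 103 bp upstream and 70.25 bp downstream, each with an exact two-sided permutation p of 0.33, and over all genes it was 56.5 bp upstream and 63.5 bp downstream. The downstream side was the longer at 38 and 41 of the 56 genes in mutant and at 40 and 38 in wild type, or 67.9% and 73.2% in mutant and 71.4% and 67.9% in wild type. Over all genes with strand the share was 65.8% and 65.9% in mutant and 66.1% and 66.0% in wild type.

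**Figure D3:**
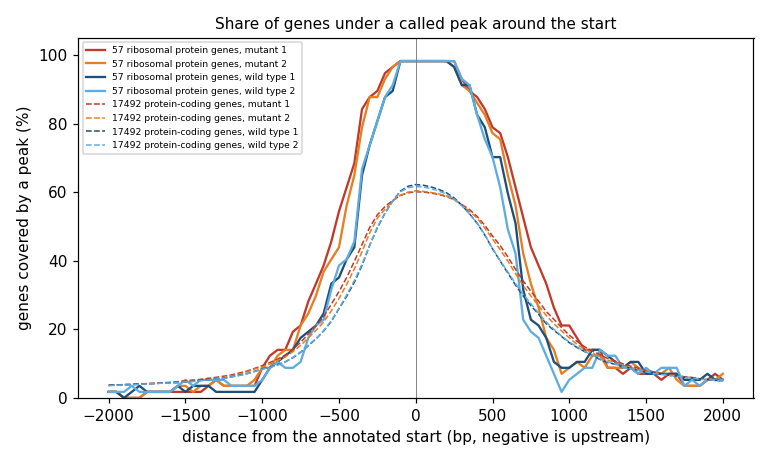
Share of genes, in percent, with a peak at each distance in bp from the start (the most upstream one, where a gene has several), upstream to the left, for the 57 ribosomal protein genes with a known strand and for all protein-coding genes, in each library. At the start itself 98.2% of the ribosomal protein genes were covered in every library, against 60.1% and 60.4% of all genes in mutant and 62.2% and 61.6% in wild type, and 500 bp upstream the ribosomal share was 54.4% and 43.9% in mutant and 35.1% and 38.6% in wild type.

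Merging the 4 lists gave 142 consensus regions in the extended gene bodies of the 80 members, of which 112 were called in all 4 libraries. Both mutant libraries had 114 regions, and 1 of these (0.877%) was found in neither wild-type library, against a background of 1.76% in the windows of protein-coding genes. Both wild-type libraries had 126 regions, and 9 of these (7.14%) were found in neither mutant library, against a background of 14.1%. A start lay within 1 kb of 90 of the 142 regions, and none of these 90 was called in 1 genotype only; 83 were called in all 4 libraries. The background for regions near protein-coding starts was 0.238% only in mutant and 4.55% only in wild type. The other 52 regions lay away from the starts, and 29 of them were called in all 4 libraries.

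The region called only in mutant lay inside Rpl21, at chromosome 5, 146835291 to 146835769 (479 bp), with a fold of 1.83 and 1.84 in the mutant libraries. Those only in wild type had a median width of 122 bp, against 1179 bp for member regions called in all 4 libraries. They lay at Rpl24 (chromosome 16, 55967409 to 55967580), Rpl5 (chromosome 5, 107905945 to 107906061), Rps19 (chromosome 7, 24886372 to 24886493), Rps16 (chromosome 7, 28351904 to 28352026 and 28353380 to 28353478), Rpl18 (chromosome 7, 45720181 to 45720593), Rps3 (chromosome 7, 99477413 to 99477518) and Rps23rg1 (chromosome 8, 3569950 to 3570039 and 3582115 to 3582254). Most were weak. At the classical genes, the highest fold among them was at Rps3, with 2.12 and 2.35 in the wild-type libraries, and the lowest was at Rps19, with 1.40 and 1.42. The widest, at Rpl18, lies within 1 kb of an annotated end of another gene, Fam83e. With an equal number of peaks taken from each list, 4 regions were called only in mutant and 3 only in wild type.

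Most regions were held by Rpl19 (5 regions), by the retrogene Rpl37rt (5), and by Rpl5, Rps15a and the retrogene Rps23rg1 (4 each). In the extended gene body of Rpl5, 1 and 1 peaks were called in mutant and 4 and 2 in wild type, so that its start peak was the only one in the mutant lists. Strong regions outside the starts were also present downstream of Rps19, at chromosome 7, 24890121 to 24890907, with a fold of 5.63 and 5.33 in mutant and 5.67 and 6.45 in wild type. Outside the annotated body of Rps10, a region at chromosome 17, 27629307 to 27629762, had a fold of 4.58 and 4.58 in mutant and 4.67 and 4.8 in wild type.

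Between genotypes, the order of the members by fold was compared as percentiles within each list, a description chosen with the values in view. A gap of 20 percentile points or more was found for 1 member that was lower in both mutant lists (background 3.1%) and for 2 that were higher (background 1.09%). The member that was lower is Rpl21, a 60S protein. Its fold was 5.94 and 6.22 in mutant and 11.1 and 11.4 in wild type, which ranked 36 and 33 of 77 in mutant and 1 and 1 in wild type. A gap as large in that direction was found for 0.636% of protein-coding genes. Rpl21 was picked as the largest such gap among 77 members, so this share does not measure how unusual it is. Its width was close in all libraries, at 1009 and 979 bp in mutant and 1000 and 923 bp in wild type, and its −log10 q was 216 and 196 in mutant and 255 and 212 in wild type. Rpl21 is also the member with the region called only in mutant. Annotated ribosomal protein pseudogenes are numerous in the mouse genome, and the handling of reads that map to several copies is not given in the sources used here, so peaks at genes with near-identical copies are uncertain.

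The 2 members with the opposite gap are the 60S genes Rpl32 and Rpl10a. Rpl32 had a fold of 5.98 and 5.91 in mutant and 4.67 and 4.91 in wild type, and ranked 35 and 42 of 77 in mutant and 71 and 67 in wild type. Its start peak is also the one that was wider in both wild-type libraries, at 1315 and 1225 bp in mutant and 1326 and 1329 bp in wild type. Rpl10a had a fold of 7.06 and 7.49 in mutant and 6.7 and 6.5 in wild type, and ranked 10 and 12 in mutant and 45 and 49 in wild type. Gaps as large in that direction as those of Rpl32 and Rpl10a were found for 0.26% and 0.67% of protein-coding genes. Rps23, a 40S protein of the decoding centre, came next, with a fold of 8.27 and 8.41 in mutant and 7.18 and 7.61 in wild type. A fold relates the pileup of 1 library to its own local background, so these values are not tested between lists.

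Some of the promoters under these start peaks carry letters known for the class, with the shares given below. The 8 shown here were picked because they show the kinds of letters, or belong to the strongest or narrowest start peaks. Sequences are from RefSeq (GRCm38.p6), on the strand of the gene, 5′ to 3′. Of each, the last 25 bases lie from the start on, except in Rps27 and Rpl41, where the last 20 do. Capitals mark the letters named before each sequence, and other matches, such as GGGCGG, are left in lower case. The start peaks cover these windows, except for Rpl41 in the second wild-type library, where the 562-bp peak given above does.
Rpl28, chr7:4792925-4792989 (plus strand), a pyrimidine tract at the start: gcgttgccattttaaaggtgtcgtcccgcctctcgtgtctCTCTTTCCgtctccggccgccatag
Rpl35, chr2:39005107-39005171 (minus strand), a pyrimidine tract across the start: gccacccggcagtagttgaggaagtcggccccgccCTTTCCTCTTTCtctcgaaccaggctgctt
Rps10, chr17:27635220-27635284 (minus strand), an ETS core and a pyrimidine tract: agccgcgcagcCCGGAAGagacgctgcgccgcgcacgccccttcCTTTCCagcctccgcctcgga
Rpl38, chr11:114668540-114668604 (plus strand), the same pair: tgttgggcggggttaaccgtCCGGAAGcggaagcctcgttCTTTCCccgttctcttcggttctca
Rps27, chr3:90213629-90213728 (minus strand), YY1 letters and a pyrimidine tract: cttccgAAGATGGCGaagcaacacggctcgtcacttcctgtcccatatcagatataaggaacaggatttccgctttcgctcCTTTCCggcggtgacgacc
Rpl41, chr10:128549149-128549258 (minus strand), GATA letters and an ETS core: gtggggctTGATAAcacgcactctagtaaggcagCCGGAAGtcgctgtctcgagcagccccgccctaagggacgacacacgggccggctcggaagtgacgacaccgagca
Rplp0, chr5:115559427-115559491 (plus strand), TATA letters after the start: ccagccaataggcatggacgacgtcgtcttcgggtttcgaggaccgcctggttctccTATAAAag
Rpl5, chr5:107900488-107900552 (plus strand), a pyrimidine tract before the start: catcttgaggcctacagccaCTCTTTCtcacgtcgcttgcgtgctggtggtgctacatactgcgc

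Shares below are for the 57 members with a promoter entry and, as background, for 17492 protein-coding genes with one, each over windows from 250 bases before to 50 bases after the start, and a match is a description of letters only. CTTTCC or CTCTTTC on the gene's strand within 20 bases of the start was found at 13 members (22.8%), against 2.66% of all. They are Rpl13a, Rpl15, Rpl18, Rpl28, Rpl35, Rpl35a, Rpl38, Rpl4, Rpl5, Rps10, Rps15a, Rps26 and Rps27. Both elements are present and overlap in Rpl18, Rpl28, Rpl35 and Rpl35a. A run of 8 or more pyrimidines within 10 bases of the start was found at 27 members (47.4%), against 16.2% of all. A C at the annotated start was found at 20 members (35.1%), against 16.1% of all. CCGGAAG, the core bound by ETS factors such as GABP, was found on either strand at 24 members (42.1%), against 12.9% of all. GGGCGG, the core bound by Sp1, was found on either strand at 35 members (61.4%), against 49.2% of all. AAGATGGCG, letters bound by YY1, was found on either strand at Rpl13a, Rpl35a and Rps27 (5.26%), against 2.14% of all.

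TATAAA on the gene's strand was found at 5 members (8.77%), against 9.82% of all, and they are Rpl36a, Rpl39, Rplp0, Rps2 and Rps28. None of the 57 had it 20 to 40 bases before the start, where 3.06% of all genes did. The GATA letters AGATAA or TGATAA, on either strand, were found at 8 members (14%), against 18.2% of all, and they are Rpl19, Rpl24, Rpl36a, Rpl4, Rpl41, Rps26, Rps4x and Rps6. The members' windows held a median of 22 CpG, against 13 over all genes, at a GC content of 57% against 56.3%. The median fold of the start peak was 5.6 and 6.03 in mutant and 7.21 and 7.12 in wild type at the 24 members with CCGGAAG. It was 5.75 and 6.18 in mutant and 7.17 and 7.06 in wild type at the 33 without. At the 27 members with a run of 8 or more pyrimidines the median fold was 5.45 and 5.74 in mutant and 6.1 and 6.78 in wild type. It was 6.27 and 6.36 in mutant and 7.39 and 7.58 in wild type at the 30 without, higher than with the run in each library. At the 10 members with CTTTCC it was 5.35 and 5.41 in mutant and 5.98 and 6.26 in wild type, and at the 47 without it was 6.07 and 6.22 in mutant and 7.23 and 7.24 in wild type. These differences between genes of the same libraries were not tested.

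**Figure D4:**
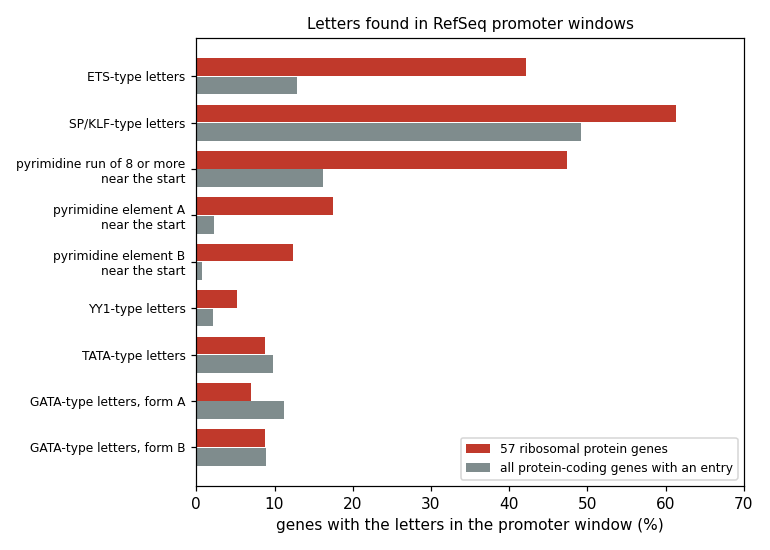
Share, in percent, of the 57 ribosomal protein genes and of all 17492 protein-coding genes whose promoter window holds each set of letters. Pyrimidine elements A and B are CTTTCC and CTCTTTC, and GATA forms A and B are AGATAA and TGATAA. The pyrimidine tracts and the ETS core are more frequent among ribosomal protein genes, with 42.1% against 12.9% for CCGGAAG, and the TATA and GATA letters are not.

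Several of these promoters are shared with a neighbour, so that their peak belongs to both genes. A start on the opposite strand lay within 1 kb of the start of 12 of the 57 members, and for 8 of these the neighbour is protein-coding. The closest protein-coding neighbour was Ndufa7, a subunit of mitochondrial complex I, 10 bp from the start of Rps28. Lias lay 66 bp from Rpl9, Rab13 67 bp from Rps27, Sphk2 69 bp from Rpl18, Lrsam1 71 bp from Rpl12, Vps52 135 bp from Rps18, Med22 165 bp from Rpl7a and Iqcg 267 bp from Rpl35a. The other 4 neighbours are long non-coding RNAs, at Rpl22, Rps10, Rps13 and Rps2.

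Introns of ribosomal protein genes carry many of the small nucleolar RNAs (snoRNAs) that guide modification of ribosomal RNA. The annotation places 59 snoRNA genes inside 30 members. Of these, 13 and 13 were under a peak in mutant and 14 and 12 in wild type, 10 were under a peak in all 4 libraries, and 43 were under none.

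The 3 retrogenes, which arose by reverse transcription of messages, differed from the classical genes. Rps27rt (chromosome 9, 114982366 to 114982739) had no peak in any library. Rps23rg1 (chromosome 8, 3567998 to 3584776) had no peak in either mutant library and 4 and 2 peaks in the wild-type libraries. Rpl37rt (chromosome 5, 115102922 to 115110268) had 4 and 3 peaks in mutant and 5 and 5 in wild type. Its strongest region, at 115107518 to 115108033 inside the annotated gene, had a fold of 5.73 and 6.44 in mutant and 7.09 and 6.78 in wild type.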

How the data were processed

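ATAC-seq broad peak lists of 2 mutant and 2 wild-type DN3 libraries were used. The submitters' processing notes name MACS2 2.1.1 besides SAMtools 1.7, Bowtie2 2.3.3.1 and cutadapt 1.16, on mm10 (GRCm38). Order, settings, read filters and shifts for transposase binding: not given in the sources used here. Peaks had been called per library, and the authors' deposited fold is a ratio of pileup to local background. The deposited −log10 p and −log10 q and the deposited score, which was not used, describe a peak within its list. Peaks off chromosomes 1 to 19, X and Y (0.112% to 0.131% of each list) were left out.

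Gene positions and sequences were those of RefSeq (GRCm38.p6). Gene windows were the gene body with 1 kb on each side, start windows 1 kb on each side of a start, and overlaps 1 bp or more. Sums and medians per library were compared by an exact two-sided permutation test; lists of genes were not tested. The code was tested on simulated lists. Python 3.11.15, numpy 2.4.6, pandas 2.3.3 and matplotlib 3.10.9 were used.

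The members and lists were chosen with earlier results of these data known. Named were members lacking a peak, those with genotype-specific regions, the 6 highest and 6 lowest by the lowest fold of 4 libraries, the 5 widest and 5 narrowest, the 5 with most regions, and members with known roles; others are said to be chosen after their values were seen. Some genes that the rule names are not reported here. Alternatives are in the closing section.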

Additional observations from a re-analysis of the deposited data

How the results depend on the processing

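The counts of members with a peak (73 to 80) and with a start peak (70 to 78) in all 4 libraries stayed within 1.5 times the values given above under every alternative. The wider median width, the longer covered length and the lower number of peaks in mutant kept their direction, with the last at −57 to −2.5 and covered length at 5.91 to 14.4 kb, where extending gene bodies by 5 kb gave 7.01 kb and an exact permutation p of 0.667. Leaving out each library in turn, the width difference was 115 to 286 bp, that in number of peaks −22 to −19 and that in covered length 8.98 to 14.4 kb. The regions called only in wild type then numbered 10 to 19 and those only in mutant 1 to 2. With 1 library left in a genotype the rule for such regions is looser, so these counts do not compare directly with those above. Without Rpl17 and Rpl41, chosen after the values were seen, the width difference was 205.5 bp. The regions called only in wild type (9) numbered 2 at a −log10 q of 5 or more, 2 at a fold of 4 or more, 3 with an equal number of peaks, 5 with a common joining gap and shortest width, and 28 with gene bodies extended by 5 kb; the regions called only in mutant (1) numbered 0 at a fold of 4 or more, 4 with an equal number of peaks and 2 with gene bodies extended by 5 kb. The cause was not tested. Deviations of start-peak width in same-numbered libraries correlated at −0.042, a single value that cannot show whether the libraries were prepared as pairs. Permutation within a replicate block, whose smallest exact p is 0.5, left the differences at −20.5 peaks, 11.7 kb and 200.5 bp. Unknown read depth limits every statement on an absent peak.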

Other observations

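Genes related to the cytosolic ribosomal proteins gave the following values. All 78 genes of the mitochondrial ribosome had a start peak in all 4 libraries. Their median fold was 6.62 and 6.97 in mutant and 7.80 and 7.70 in wild type, and their median start-peak width was 1207 and 1166.5 bp in mutant and 1037.5 and 1009.5 bp in wild type. The downstream side of the peak was the longer at 51.5% and 57.4% of the mitochondrial genes in mutant and at 52.9% and 52.9% in wild type, where it was the longer at 67.9% and 73.2% of the cytosolic genes in mutant and at 71.4% and 67.9% in wild type. Over all protein-coding genes with strand, this share was 65.8% and 65.9% in mutant and 66.1% and 66.0% in wild type. All 19 translation factors and related genes whose messages are of the TOP class, such as Eef1a1, Eef2 and Pabpc1, had a start peak in all 4 libraries.

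Of 8 paralogues whose symbol ends in l or in l and a digit, 4 had a start peak in all 4 libraries. Rpl22l1, the paralogue that Rpl22 represses in mouse cells, had a fold of 8.77 and 9.05 in mutant and 9.46 and 9.03 in wild type, and a width of 1001 and 957 bp in mutant and 947 and 967 bp in wild type. The others were Rpl36al, Rpl7l1 and Rps27l. Rpl3l, the form of striated muscle, had peaks only away from its start, and Rpl10l, Rpl32l and Rpl39l had no peak in any library. Of 324 annotated pseudogenes of Rps and Rpl genes, 34 (10.5%) had a peak in all 4 libraries and 259 had none. A peak was present at 40 and 36 of them in mutant and at 57 and 55 in wild type, with 1 of 324 called only in mutant and 11 of 324 only in wild type. Over protein-coding genes the shares were 0.0457% only in mutant and 1.67% only in wild type, whose lists hold more peaks.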
